A study of Mus musculus with 6 samples.

Results

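The genes described here encode the cytokines IL-23, IL-17A, IL-17F and IL-22 and the receptor chains that bind them: Il23a, Il17a, Il17f and Il22 on the ligand side, and Il23r, Il12rb1, Il17ra, Il17rc and Il22ra1 on the receptor side. They were chosen by gene symbol, and all 9 were found among the 31053 genes of single-cell RNA sequencing data from mouse dorsal skin. Each symbol named a single gene. The data asked which cell classes carried each ligand and each receptor chain, and whether imiquimod cream, alone or with an inhibitor of the phosphatase SHP2, moved them.

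Skin came from female C57BL/6 mice aged 8 to 10 weeks and fell into 3 groups of 2 libraries. Sham mice were untreated, and each Sham library pooled 2 mice. The IMQ group was treated on the back with 62.5 mg of 5% imiquimod cream daily for 4 days, which gives the skin psoriasis-like inflammation, and each IMQ library pooled 3 mice. IMQ+SHP099 mice received the same cream and, by gavage, SHP099, an allosteric SHP2 inhibitor, at 10 mg/kg each day for 4 days, again with 3 mice per library. The library is the replicate in every test, so the p-values measure the spread between pools of mice.

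IL-23 is a dimer of the p19 subunit, encoded by Il23a, and the p40 subunit, encoded by Il12b and shared with IL-12. It acts on type 17 lymphocytes through IL-23R paired with IL-12Rβ1 and sustains their output of IL-17A, IL-17F and IL-22. IL-17A and IL-17F signal through IL-17RA paired with IL-17RC, and IL-22 through IL-22RA1 paired with IL-10RB. In skin, keratinocytes are the best known responders and release neutrophil attractants and antimicrobial proteins, and in mice many of the IL-17 producers are dermal γδ T cells.

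After filters on depth and mitochondrial share, 50850 of 55201 barcodes were kept, 7382 to 10293 per library, with a median of 5645 to 18263.5 UMIs per cell. A UMI, the unit of the counts, stands for a captured RNA molecule. Levels are given as CPM, the UMIs of a gene among 1000000 UMIs of the cell class in that library. They compare cell classes and libraries for a gene, not different genes. Cell classes were built by clustering without the 9 genes, from other genes of the same cells, and named from marker lists. Clusters that could not be named held 6.30% of cells. Sub-clusters led by markers of a class other than their parent class, called mixed, held a further 3.50%. The make-up of the libraries differed within groups: keratinocytes numbered 5822 and 1822 in Sham skin, 1185 and 764 in IMQ skin and 5171 and 432 in IMQ+SHP099 skin. Lymphocytes numbered 320 to 743 per library, and 44.5% of them stayed unnamed at the level of subsets. Of the unnamed ones, 1 cluster lay almost wholly in Sham replicate 1 (232 of 234 cells), and 2 shallow clusters took 191 and 166 of the 458 lymphocytes of IMQ+SHP099 replicate 1. The first of these 2 also held 199 of the 743 lymphocytes of IMQ replicate 1, and the second 78 of the 516 of IMQ+SHP099 replicate 2. In the Sham libraries the first held 0 and 3 cells and the second 0 and 0.

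The promoters of 3 genes of the type 17 cells are shown first, because those genes were found in the same cells below and their promoters hold the same short motif. In the GRCm38.p6 assembly Il17a lies on chromosome 1 at 20730905 to 20734496 on the plus strand, and Il17f on the same chromosome at 20777146 to 20790617 on the minus strand. Il22 lies on chromosome 10 at 118204942 to 118210047 on the plus strand, and Il23r on chromosome 6 at 67422932 to 67491855 on the minus strand. All 9 genes are protein-coding in the GENCODE annotation and overlap no other annotated gene. The sequences, from RefSeq, are the 250 bases before the RefSeq start of each gene, 5′ to 3′ on the gene's own strand (chr1:20730655-20730904 for Il17a, chr1:20784271-20784520 for Il17f and chr6:67491856-67492105 for Il23r). Capitals mark AGGTCA or its reverse complement TGACCT, a half-site bound by many nuclear receptors. The RefSeq start of Il17f lies inside the longer GENCODE gene.
Il17a: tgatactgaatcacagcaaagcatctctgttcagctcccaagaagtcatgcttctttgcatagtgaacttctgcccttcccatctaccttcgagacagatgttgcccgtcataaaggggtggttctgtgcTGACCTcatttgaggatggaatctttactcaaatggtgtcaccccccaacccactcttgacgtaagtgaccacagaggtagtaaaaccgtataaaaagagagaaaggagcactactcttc
Il17f: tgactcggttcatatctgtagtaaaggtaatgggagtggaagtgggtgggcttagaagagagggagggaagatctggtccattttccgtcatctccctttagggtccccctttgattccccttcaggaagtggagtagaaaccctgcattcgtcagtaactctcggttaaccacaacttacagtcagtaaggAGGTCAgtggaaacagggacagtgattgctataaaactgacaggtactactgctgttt
Il23r: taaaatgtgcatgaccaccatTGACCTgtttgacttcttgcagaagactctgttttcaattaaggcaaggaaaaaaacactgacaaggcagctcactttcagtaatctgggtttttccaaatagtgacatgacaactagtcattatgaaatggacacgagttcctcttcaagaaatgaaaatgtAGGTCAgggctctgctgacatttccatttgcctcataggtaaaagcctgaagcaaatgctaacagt

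The search covered both strands of the 300 bases from 250 before to 50 after each start. AGGTCA was found once in Il17a, at position -120 from the start, once in Il17f at -58, and at -229 and -66 in Il23r. It was not found in Il22, nor in Il17rc and Il22ra1, the other members in the table. Of 32851 promoters of that length, 16.3% hold the motif. The STAT motif TTCNNNGAA was in none of the 6 and in 8.30% of all promoters. A match is a description of the letters and not a binding site.

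Il23a, on chromosome 10 at 128296139 to 128298752, had most of its UMIs in keratinocytes in these libraries. Keratinocytes held 73.7% ± 12.7 (SD, n = 6 libraries) of its UMIs, with a range of 50.8% to 87.6%. Their level was 1.06 and 1.08 CPM in Sham skin, 23.6 and 25.7 CPM in IMQ skin, and 9.69 and 12.4 CPM in IMQ+SHP099 skin. The 3 groups did not overlap, and the IMQ libraries were the highest. These levels rested on 78 and 33 UMIs in Sham skin, 962 and 598 in IMQ skin, and 1345 and 118 in IMQ+SHP099 skin. Fibroblasts stayed at 0 to 1.46 CPM in all libraries. A share of UMIs also depends on how many UMIs of all genes a class holds. In CPM, keratinocytes were not above myeloid cells in every library, as given below.

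In keratinocytes Il23a rose by 4.81 on the log2 scale in IMQ over Sham (SE 0.299, adjusted p = 0.000186, edgeR quasi-likelihood test with Benjamini-Hochberg adjustment over 13850 genes). It was the only member of 4 tested that passed in this sum, where 12.6% of all genes were called, 5.04% as risen and 7.52% as fallen. The call was kept under all 12 alternatives, with log2 fold changes of 4.59 to 5.10. Between IMQ+SHP099 and IMQ the log2 fold change was -1.06 (SE 0.255, unadjusted p = 0.00292), with an edgeR adjusted p of 1. In that contrast no gene of the keratinocyte sum passed, 2.12% of genes had an unadjusted p under 0.05, and Il23a passed under none of 12 alternatives, the lowest adjusted p being 0.222. Both contrasts share the IMQ libraries.

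Counting cells in place of molecules gave the same order of the groups. After every cell was thinned to 2000 UMIs, 0.232% and 0.114% of Sham keratinocytes held an Il23a UMI, 3.07% and 2.71% of IMQ keratinocytes, and 1.52% and 1.76% of IMQ+SHP099 keratinocytes. The difference of 2.72 percentage points between IMQ and Sham had p = 0.333 in the exact two-sided permutation test, the smallest it can give with 2 libraries against 2. Without thinning the difference was 14.7 points, and IMQ keratinocytes were deeper (medians of 31203 and 34814 UMIs against 9533.5 and 14939.5 in Sham).

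Il23a differed between keratinocytes richer in basal and in suprabasal marker RNA, in a direction that was not the same in Sham and treated skin. Basal markers were Krt5, Krt14, Krt15 and other genes of the layer on the basement membrane. Suprabasal markers were Krt1, Krt10, Krtdap and other genes of differentiating layers. Cells gated as keratinocytes were split at the median, over all libraries, of the ratio of basal to suprabasal marker RNA. Every such cell was thus called basal or suprabasal, also those of follicle, cycling or unnamed clusters. Gated suprabasal cells held 0.309 and 0.38 CPM in Sham skin, 32.3 and 37.1 CPM in IMQ skin, and 15.5 and 16.6 CPM in IMQ+SHP099 skin. Gated basal cells held 1.66 and 1.69 CPM in Sham skin, 4.45 and 3.41 CPM in IMQ skin, and 3.71 and 2.55 CPM in IMQ+SHP099 skin. In both Sham libraries the basal cells were higher, by 1.02 and 0.965 on the log2(CPM+1) scale. In all 4 cream-treated libraries the suprabasal cells were higher, by 2.61 and 3.11 in IMQ skin and by 1.81 and 2.31 in IMQ+SHP099 skin. These opposite differences were not tested against each other. The gates also took cells of different clusters: clusters named suprabasal held 1983 and 95 cells in Sham skin, 0 and 0 in IMQ skin, and 3 and 0 in IMQ+SHP099 skin, so the suprabasal gate compares different populations.

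Among keratinocyte clusters the highest Il23a level was in one that could not be named, led by Sprr2i, Lce3c, Lce3d, Cnfn and Defb4, genes of cornifying and inflamed epidermis. It held 297 and 90 cells in IMQ skin, 503 and 100 in IMQ+SHP099 skin, and 1 and 0 in Sham. Its level was 61.3 and 92.2 CPM in IMQ skin and 43.4 and 33.1 CPM in IMQ+SHP099 skin. The upper hair follicle-like class read 1.89 and 1.24 CPM in Sham skin, 12.3 and 20.9 CPM in IMQ skin, and 8.64 and 7.52 CPM in IMQ+SHP099 skin. In the sum of the basal clusters Il23a did not pass (log2 fold change 1.25, SE 0.711, edgeR adjusted p = 0.336). Here the same class was held by different clusters in the groups: the Sham basal cells lay mostly in clusters led by Igfbp3, Matn4 and Ccdc27, and those of the treated libraries mostly in clusters led by Has2, Mmp13 and Csf3 or by Wif1 and Shisa2.

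**Figure D1:**
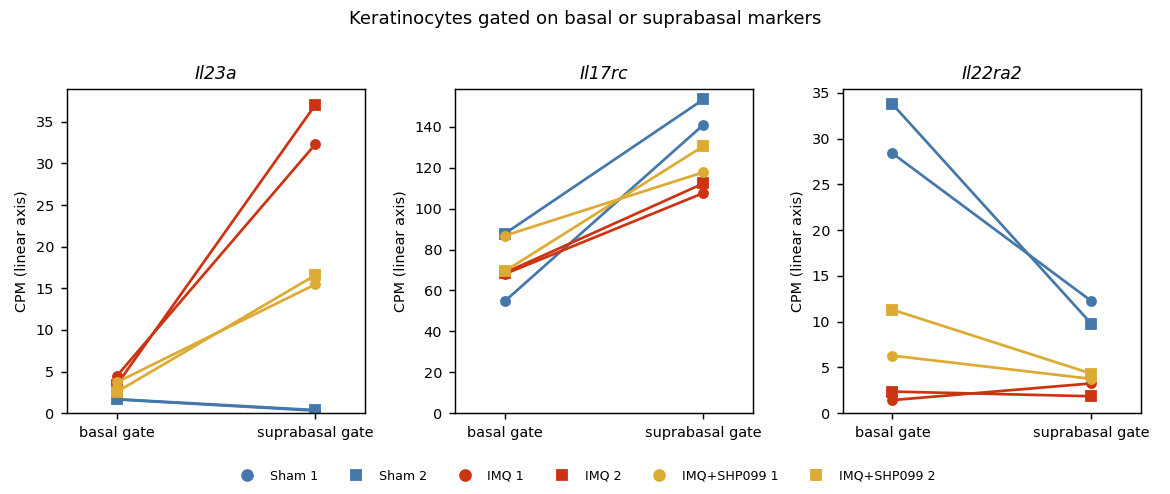
Each panel plots the level (CPM, linear axis) of Il23a, Il17rc or Il22ra2 in gated basal and gated suprabasal keratinocytes, with 1 line per library and colours for the 3 groups. The Il23a lines fall from basal to suprabasal in the 2 Sham libraries and climb in the other 4, while the Il17rc lines climb in all 6.

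Myeloid cells, the textbook source of IL-23, read 2.14 and 1.40 CPM of Il23a in Sham skin, 20.5 and 3.51 CPM in IMQ skin, and 31.1 and 2.77 CPM in IMQ+SHP099 skin. All 4 treated libraries lay above both Sham libraries, IMQ and IMQ+SHP099 overlapped, and in both treated groups replicate 1 was the high library. The log2 fold change of IMQ over Sham was 3.08 (SE 1.37, edgeR adjusted p = 0.488), 1.33 without IMQ replicate 1, and it passed with no filter on low counts (adjusted p = 0.00237). No member passed in the myeloid sum (0 of 3 tested, 0% of 10939 genes called, with 10.7% at an unadjusted p under 0.05). No difference between myeloid cells and keratinocytes passed across the 6 libraries (mean difference -0.37 ± 1.56 on the log2(CPM+1) scale, higher in myeloid cells in 3 of 6, exact paired permutation p = 0.594). Within the myeloid class, neutrophil-like cells held 0 and 0 Il23a UMIs in Sham skin, 52 and 16 in IMQ skin, and 24 and 3 in IMQ+SHP099 skin. Mature dendritic-like cells held 21 in IMQ replicate 1, 1 in IMQ+SHP099 replicate 1 and 0 in the others.

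The partner subunit Il12b was found in other cells than Il23a. Myeloid cells held 21 and 103 Il12b UMIs in Sham skin, 2 and 27 in IMQ skin, and 16 and 0 in IMQ+SHP099 skin, of which mature dendritic-like cells held 20 and 102, 1 and 27, and 16 and 0. Keratinocytes held 23 Il12b UMIs in 12 cells of IMQ+SHP099 replicate 1 and 0 in every other library. Cells with a UMI of both genes numbered 1 in IMQ replicate 1, 1 in IMQ+SHP099 replicate 1 and 0 elsewhere, against 61 to 571 cells per library with Il23a. Since these are RNA counts at limited depth, a lack of joint UMIs does not show that a cell lacks p40. Myeloid marker RNA within the keratinocyte class summed to 43.6 and 38.9 CPM over 17 genes in Sham skin, 17.7 and 24.7 CPM in IMQ skin, and 19.5 and 39.5 CPM in IMQ+SHP099 skin, with 1 to 5 of the genes at 0. Its part in the Il23a values was not tested.

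**Figure D2:**
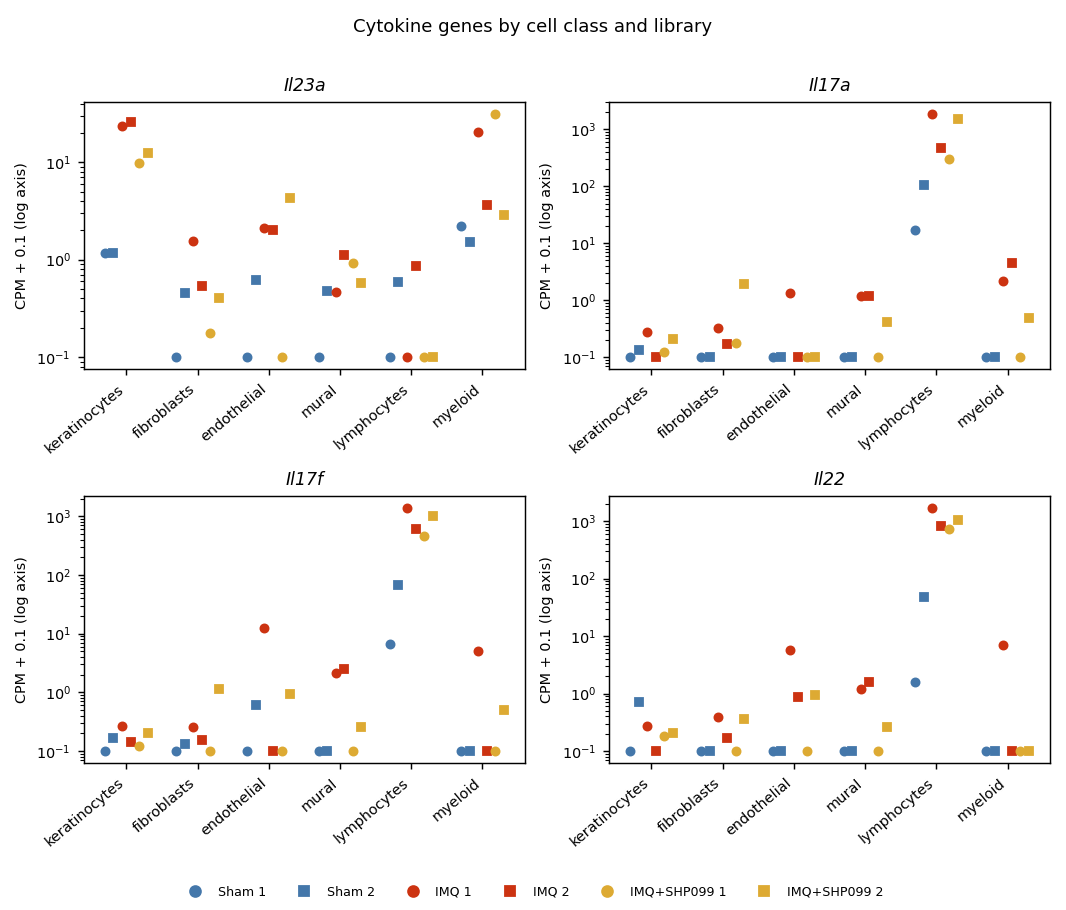
Levels of Il23a, Il17a, Il17f and Il22 in the main cell classes, as CPM + 0.1 on a log axis where a point at 0.1 is a level of 0, with circles for replicate 1, squares for replicate 2 and colours for the groups. Il23a is high in treated keratinocytes and in some myeloid libraries, and the other 3 cytokines are high in lymphocytes.

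Il17a, Il17f and Il22 were transcripts of lymphocytes. Lymphocytes held 83.4% ± 9.56 of the Il17a UMIs (SD, n = 6 libraries), 77.2% ± 21.1 of the Il17f UMIs and 88.4% ± 7.94 of the Il22 UMIs. Most of the rest lay in the mixed sub-clusters, except for Il22 and Il17f in Sham replicate 2. There keratinocytes held 19 of 120 Il22 UMIs, and the mixed sub-clusters held 0 of 147 Il17f UMIs. Keratinocytes stayed at 0 to 0.172 CPM of Il17a and at 0 to 0.623 CPM of Il22. The lymphocyte level of Il17a was 16.98 and 104 CPM in Sham skin, 1872 and 469 CPM in IMQ skin, and 303 and 1532 CPM in IMQ+SHP099 skin. For Il17f it was 6.64 and 68.4 CPM in Sham skin, 1385 and 602 CPM in IMQ skin, and 461 and 1025 CPM in IMQ+SHP099 skin. For Il22 it was 1.48 and 47.1 CPM in Sham skin, 1705 and 817 CPM in IMQ skin, and 720 and 1063 CPM in IMQ+SHP099 skin. All 4 treated libraries lay above both Sham libraries for each cytokine, and the IMQ and IMQ+SHP099 libraries overlapped for all 3.

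None of the 6 members tested in the lymphocyte sum passed after adjustment, in a sum where 0.0108% of genes (1 of 9228) were called. Over Sham, the log2 fold changes in IMQ were 4.47 for Il17a (SE 1.10), 4.93 for Il17f (SE 0.949) and 5.88 for Il22 (SE 1.07), with edgeR adjusted p-values of 0.257, 0.207 and 0.207. Leaving out 1 library of either group moved them to between 3.24 (without IMQ replicate 1) and 6.15 for Il17a, 4.14 (without Sham replicate 1) and 7.27 for Il17f, and 5.02 (without Sham replicate 1) and 9.73 for Il22, the highest value being without Sham replicate 2 each time. At an unadjusted p under 0.05 these 3 and Il23r were higher in IMQ skin, against 6.04% of all genes, and 13.8% of genes passed in either direction. Il22 and Il17f passed under 4 of 12 alternatives, DESeq2, no filter on low counts, the replicate block and the fit without Sham replicate 2, and Il17a under the first 3 of them. Between IMQ+SHP099 and IMQ the log2 fold changes were -0.38 for Il17a (SE 0.947), -0.47 for Il17f (SE 0.797) and -0.57 for Il22 (SE 0.854), each with an edgeR adjusted p of 0.999 in a sum with 0% of genes called and 1.86% at an unadjusted p under 0.05. Few cells carried these molecules: the 10 richest cells of a library held 32.7% to 100% of the Il17a UMIs, and a single cell of IMQ replicate 1 held 568.

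The share of lymphocytes with a UMI, after thinning to 2000 UMIs, again put all 4 treated libraries above both Sham libraries. For Il17a it was 1.57% and 5.58% in Sham skin, 26.3% and 11.9% in IMQ skin, and 18.2% and 27.7% in IMQ+SHP099 skin. For Il17f it was 0.314% and 3.55% in Sham skin, 28.0% and 20.2% in IMQ skin, and 21.8% and 28.4% in IMQ+SHP099 skin. For Il22 it was 0% and 1.52% in Sham skin, where 0 of 318 cells allows a share of up to 0.943%, 19.6% and 13.6% in IMQ skin, and 23.6% and 17.7% in IMQ+SHP099 skin. Thinning left 243 to 578 lymphocytes in 5 of the libraries but 55 in IMQ+SHP099 replicate 1. For Il17a and Il17f that library did not keep the order at every depth. Thinned to 1000 UMIs, 2.74% of its lymphocytes held Il17a, against 5.19% in Sham replicate 2. Without thinning it had 2.40% against 7.01% for Il17a, and 2.84% against 4.21% for Il17f. Keratinocytes thinned in the same way held no Il17a UMI in any library, and 3 cells, the count that 0 observed allows, correspond to 0.0536% to 0.756% of them, a limit on cells with a UMI and not on cells that express the gene. Each of the differences between IMQ and Sham had an exact permutation p of 0.333.

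The subset named type 17-like T cells held the most Il17a UMIs of any lymphocyte subset in Sham replicate 2 and in 3 of the treated libraries. Its name rests on 10 of 12 raised type 17 markers, such as Blk, Sox13 and 5830411N06Rik, and none of the cytokines was used to build it. It held 8 and 76 cells in Sham skin, 191 and 65 in IMQ skin, and 12 and 130 in IMQ+SHP099 skin. Its Il17a level was 256 and 596 CPM in Sham skin, 3855 and 1789 CPM in IMQ skin, and 1533 and 4119 CPM in IMQ+SHP099 skin, so that the cells of Sham replicate 2 were already the main holders of Il17a there (191 of 248 UMIs). Il17f in the subset was 0 and 412 CPM in Sham skin, 3082 and 2447 CPM in IMQ skin, and 2836 and 2776 CPM in IMQ+SHP099 skin. Il22 was 0 and 21.9 CPM in Sham skin, 3752 and 3256 CPM in IMQ skin, and 4737 and 2731 CPM in IMQ+SHP099 skin. In Sham replicate 2 the subset had 7 of the library's 120 Il22 UMIs, beside 191 of Il17a and 132 of Il17f, and cycling lymphocytes held 67 of the 120 and an unnamed cluster 23. The subset held 52.9% ± 21.8 of a library's Il17a UMIs (SD, n = 6 libraries), 53.3% ± 29.95 of Il17f and 41.6% ± 30.3 of Il22, and a gate on type 17 markers in single cells, which also takes cells from unnamed and mixed clusters, held 80.4%, 83.4% and 90.9%. Cycling lymphocytes, in which 6 of 12 type 17 markers were raised, held a further 1873 and 137 Il17a UMIs in IMQ skin and 112 and 599 in IMQ+SHP099 skin. Their Il22 UMIs numbered 1422 and 187 in IMQ skin and 184 and 475 in IMQ+SHP099 skin. With 8 and 12 cells in 2 libraries the subset could not be tested across the groups.

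**Figure D3:**
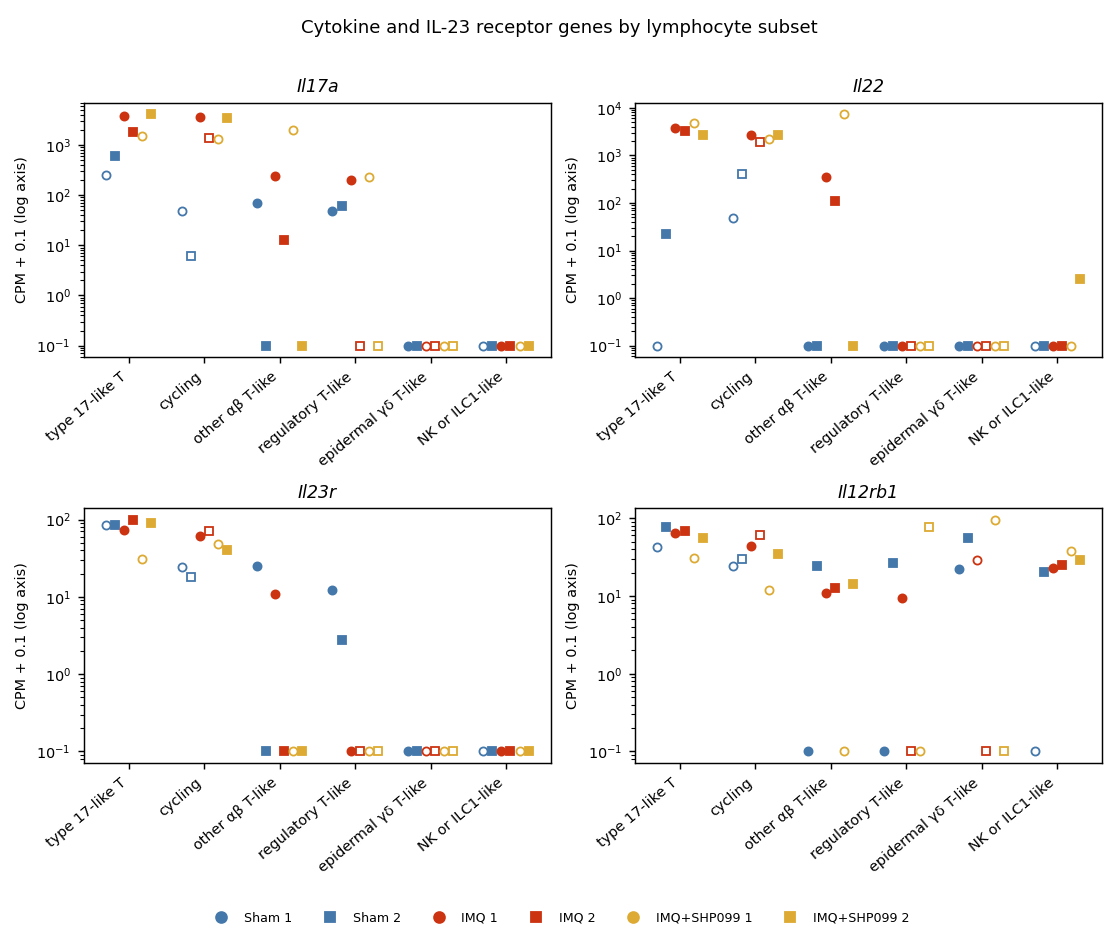
Levels of Il17a, Il22, Il23r and Il12rb1 in 6 lymphocyte subsets, as CPM + 0.1 on a log axis where a point at 0.1 is a level of 0, with circles for replicate 1, squares for replicate 2 and open symbols for subsets of under 20 cells in a library. The type 17-like T cells are high for all 4 genes in most libraries, and the epidermal γδ T-like cells have Il12rb1 in Sham skin with little of the other 3.

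Most producers carried RNA of a γδ T-cell receptor. Of 372 lymphocytes with Il17a, 312 (83.9%) held a UMI of Trdc, the constant part of the δ chain. A UMI of Trac, the constant part of the α chain, was found in 129 of them (34.7%), and without Trdc in 34 (9.14%). By library the Trdc-positive cells were 4 of 8 and 27 of 30 in Sham skin, 158 of 179 and 27 of 38 in IMQ skin, and 10 of 11 and 86 of 106 in IMQ+SHP099 skin. Of 382 lymphocytes with Il17f, 327 held Trdc (85.6%), and of 273 with Il22, 220 did (80.6%), while 27 (7.07%) and 30 (11.0%) held Trac alone. These counts pool cells of all libraries, and IMQ replicate 1 gave the largest part. No share of Trdc over all lymphocytes was set beside them. Variable segments were seen less often: Trdv4 in 164 of the Il17a-positive cells (44.1%), Tcrg-V6 in 31 (8.33%) and Tcrg-V4 in 15 (4.03%), and Trdv4 is shared by epidermal and dermal γδ T cells. Cd4 was seen in 10 and Cd8a in 3.

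The other T-cell subsets differed in size between the groups and held smaller parts of the cytokine UMIs in most libraries. Epidermal γδ T-like cells, the resident dendritic T cells of mouse epidermis that carry Tcrg-V5, made up 25.2% and 26.4% of lymphocytes in Sham skin, 2.56% and 2.19% in IMQ skin, and 3.93% and 2.52% in IMQ+SHP099 skin. The type 17-like share was 1.62% and 17.8% in Sham skin, 25.7% and 20.3% in IMQ skin, and 2.62% and 25.2% in IMQ+SHP099 skin. The first shares separate Sham from both treated groups, whereas for the second Sham replicate 1 and IMQ+SHP099 replicate 1, the libraries whose lymphocytes were mostly unnamed, stand apart from the other 4. Unnamed clusters nearly absent from Sham skin held part of the treated lymphocytes. Whether they include epidermal γδ T-like cells was not tested. Other αβ T-like cells held 11 of the 25 Il17a UMIs of Sham replicate 1, more than the 6 of the type 17-like cells there. They held 87 of 6839 in IMQ replicate 1 and 0 to 18 in the remaining libraries. Of Il22 they held 128 of 6277 UMIs in IMQ replicate 1, 18 of 1325 in IMQ replicate 2 and 66 of 584 (11.3%) in IMQ+SHP099 replicate 1, and 0 in the others. Regulatory T-like cells held 0 to 23 Il17a UMIs per library.

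Among Il17a-positive lymphocytes, 149 of 179 also held Il17f in IMQ replicate 1, 32 of 38 in IMQ replicate 2 and 86 of 106 in IMQ+SHP099 replicate 2. Il22 was found in 109, 22 and 51 of the same cells. In Sham replicate 2, 13 of 30 held Il17f and 4 of 30 held Il22. Joint detection rises with the number of molecules in a cell, and no test was made of it.

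Il23r, which encodes the chain that gives the IL-23 receptor its specificity, was a rare transcript with 7 to 133 UMIs per library over all cells. The lymphocyte level was 5.91 and 15.5 CPM in Sham skin, 35.3 and 25.3 CPM in IMQ skin, and 7.72 and 29.5 CPM in IMQ+SHP099 skin. IMQ lay above Sham, and IMQ+SHP099 had 1 library at the Sham level and 1 at the IMQ level. Lymphocytes exceeded myeloid cells in 6 of 6 libraries, by 4.05 ± 0.931 on the log2(CPM+1) scale (exact paired permutation p = 0.03125, BH 0.0495). This p is the smallest 6 libraries allow, and the BH value depends on how many other class pairs share it. As background, 30.8% of genes were higher in lymphocytes than in myeloid cells in all 6 libraries. In the lymphocyte sum Il23r had a log2 fold change of 1.67 in IMQ over Sham (SE 0.599, edgeR adjusted p = 0.309) and of -0.67 in IMQ+SHP099 over IMQ (SE 0.580, adjusted p = 0.999).

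Within the type 17-like T cells the Il23r levels of the groups overlapped. They were 85.2 and 84.3 CPM in Sham skin, 73.8 and 98.3 CPM in IMQ skin, and 30.7 and 89.0 CPM in IMQ+SHP099 skin, where 30.7 CPM rests on 2 UMIs and the first Sham value as well. For Il17f and Il22 the same cells read higher in each treated library than in either Sham library, so receptor and cytokine levels ran apart there, as a description with no test. Other αβ T-like cells read 0 to 10.9 CPM in the 4 libraries with at least 20 cells of both subsets, and the type 17-like cells were higher in each of the 4 by a mean of 5.55 ± 1.93 (exact p = 0.125, the smallest 4 libraries allow). With cells gated from marker scores in place of clusters, all 6 libraries could be used, and the type 17 gate exceeded the Trac gate in 6 of 6 by 3.59 ± 1.73 (exact p = 0.03125, BH 0.0424). Of 175 lymphocytes with Il23r, pooled over the libraries, 140 held Trdc (80%). Trac was found in 52 of the 175 (29.7%), and without Trdc in 13 (7.43%). Keratinocytes held 9 Il23r UMIs in Sham replicate 1 and 0 to 2 in the others, at most 0.123 CPM.

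Il12rb1, on chromosome 8 at 70808449 to 70821424, encodes the other IL-23 receptor chain, which also serves IL-12. It was spread over more lymphocyte subsets than Il23r. The lymphocyte level was 11.8 and 39.3 CPM in Sham skin, 38.0 and 33.7 CPM in IMQ skin, and 21.9 and 31.3 CPM in IMQ+SHP099 skin. The groups overlapped, and the log2 fold change of IMQ over Sham was 0.68 (SE 0.468, edgeR adjusted p = 0.523). Lymphocytes exceeded myeloid cells by 4.29 ± 0.681 and keratinocytes by 4.73 ± 0.604 on the log2(CPM+1) scale, in 6 of 6 libraries each (exact p = 0.03125, BH 0.0495, against 26.3% of genes higher in lymphocytes than in keratinocytes in all 6). Type 17-like T cells read 30.7 to 78.1 CPM, NK or ILC1-like cells 0 to 37.5 CPM and other αβ T-like cells 0 to 23.9 CPM. The type 17-like cells exceeded the αβ T-like cells in 4 of 4 libraries by 2.10 ± 0.388 (exact p = 0.125), and by gates in 5 of 6 libraries by 1.295 ± 1.72 (exact p = 0.156). Epidermal γδ T-like cells held 6 and 28 Il12rb1 UMIs in Sham skin, which is 22.4 and 55.3 CPM, beside 0 Il23r UMIs in both, where 3 UMIs, the count that 0 observed allows, correspond to 11.2 and 5.93 CPM. Both chains were seen in the same cell in 0 and 9 lymphocytes of Sham, 27 and 9 of IMQ, and 1 and 8 of IMQ+SHP099.

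**Figure D4:**
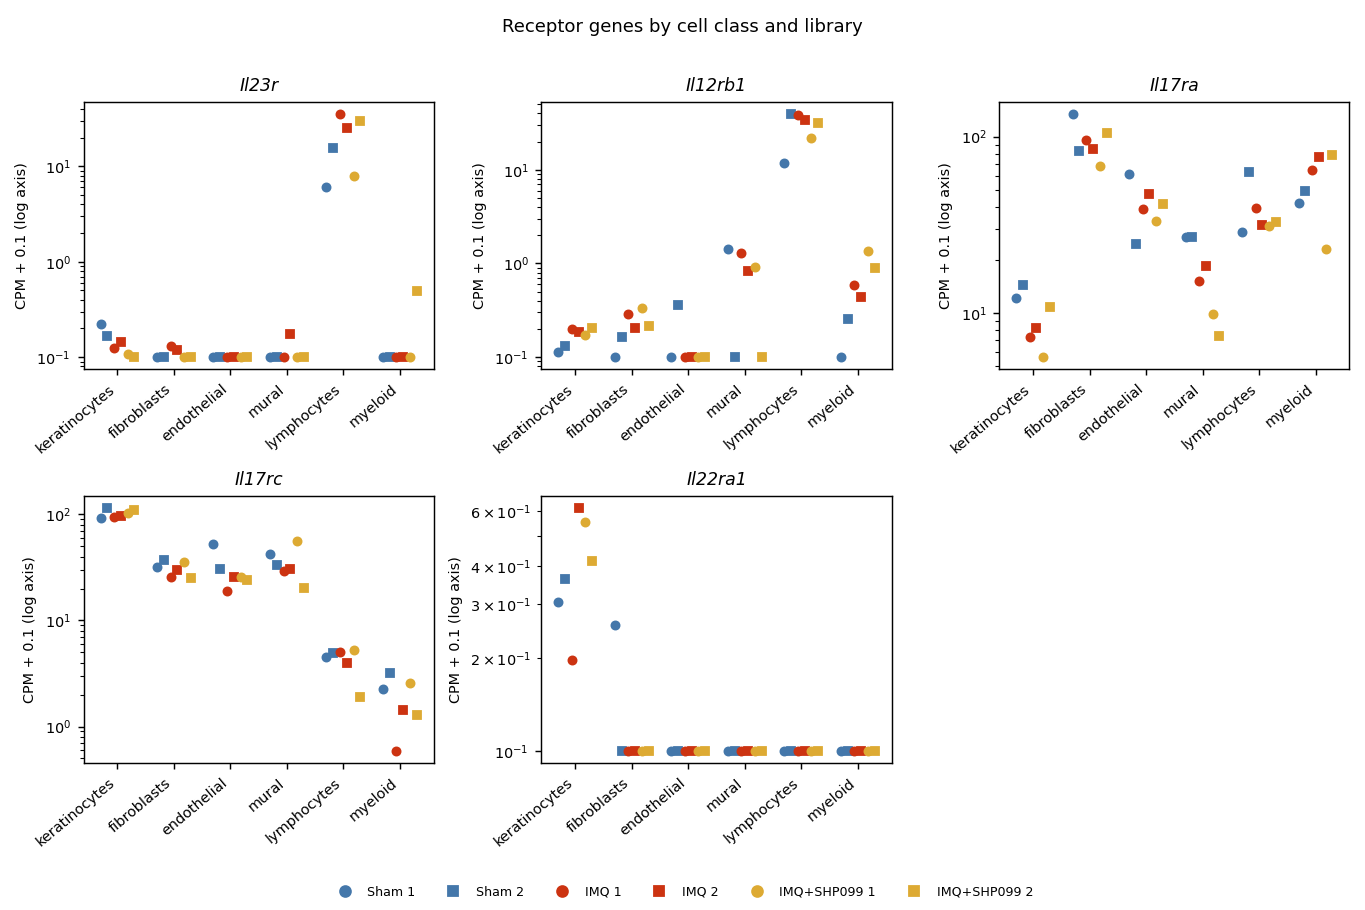
Levels of the 5 receptor genes in the main cell classes, as CPM + 0.1 on a log axis where a point at 0.1 is a level of 0, with circles for replicate 1, squares for replicate 2 and colours for the groups. Il23r and Il12rb1 are highest in lymphocytes, Il17ra in fibroblasts and myeloid cells, and Il17rc in keratinocytes, and Il22ra1 lies under 1 CPM in keratinocytes.

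The chains of the IL-17 receptor were distributed in opposite ways in keratinocytes and myeloid cells, and fibroblasts held both. Il17ra, on chromosome 6 at 120463247 to 120487559, encodes the chain shared by several IL-17 receptors. It read 134 and 82.3 CPM in fibroblasts of Sham, 95.5 and 85.0 CPM in IMQ skin, and 68.2 and 105 CPM in IMQ+SHP099 skin. Myeloid cells read 42.0 and 48.9 CPM in Sham skin, 64.6 and 77.0 CPM in IMQ skin, and 23.0 and 78.8 CPM in IMQ+SHP099 skin. Keratinocytes were lower than these classes and lymphocytes in every library, at 12.0 and 14.3 CPM, 7.18 and 8.13 CPM, and 5.50 and 10.6 CPM. In 6 of 6 libraries keratinocytes were below fibroblasts (by 3.21 ± 0.395 on the log2(CPM+1) scale), myeloid cells (by 2.37 ± 0.660) and lymphocytes (by 1.87 ± 0.441), each with exact p = 0.03125 and BH 0.0495. An exact p of 0.03125 is the smallest 6 libraries allow, so BH 0.0495 rests on how many class pairs reach it. Those pairs include Il22ra1 in keratinocytes against myeloid cells and lymphocytes, where a difference was not detectable (below). The BH values therefore add nothing to the same direction in 6 of 6 libraries. As background, 39.1% of genes were higher in fibroblasts than in keratinocytes in all 6 libraries, and 21.5% higher in myeloid cells. Monocyte-like cells reached 63.9 to 346 CPM and neutrophil-like cells 57.6 to 399 CPM, both extremes resting on 1 to 5 UMIs.

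Il17rc, on chromosome 6 at 113471427 to 113483140, encodes the chain that pairs with IL-17RA for IL-17A and IL-17F. It read 93.2 and 115 CPM in keratinocytes of Sham, 94.9 and 97.1 CPM in IMQ skin, and 104 and 109 CPM in IMQ+SHP099 skin. This was the highest class in every library, and the groups overlapped. Fibroblasts read 25.1 to 36.9 CPM, lymphocytes 1.81 to 5.15 CPM and myeloid cells 0.487 to 3.12 CPM. Fibroblasts lay below keratinocytes by 1.71 ± 0.223 and above myeloid cells by 3.57 ± 0.335, and keratinocytes above myeloid cells by 5.28 ± 0.486 (6 of 6 libraries, exact p = 0.03125, BH 0.0495 for each, where 23.7%, 41.2% and 30.6% of genes went the same way in all 6). With gated classes the fibroblast to myeloid difference dropped to 1.51 (exact p = 0.0938). Myeloid cells had the lowest Il17rc of these 4 classes in every library, beside an Il17ra level above that of keratinocytes.

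Among keratinocytes split by marker ratio, Il17rc was higher on the suprabasal side. Gated suprabasal cells read 141 and 153 CPM in Sham skin, 108 and 112 CPM in IMQ skin, and 118 and 130 CPM in IMQ+SHP099 skin. Gated basal cells read 54.6 and 87.7 CPM, 68.0 and 68.6 CPM, and 86.7 and 69.3 CPM. Basal cells were lower in 6 of 6 libraries, by 0.81 ± 0.31 on the log2(CPM+1) scale (exact p = 0.03125, BH 0.0424), a comparison that with clusters could be made in the 2 Sham libraries only (-1.09 ± 0.558, exact p = 0.5). Both chains were seen together in 69 to 614 keratinocytes per library, which is 67.3% to 92.2% of the keratinocytes with Il17ra. In fibroblasts it was 96 to 729 cells, or 15.8% to 32.9% of those with Il17ra. As background, Il17rc was seen in 53.5% to 85.4% of all keratinocytes and in 14.5% to 29.3% of all fibroblasts. As a share of the whole class, cells with both chains made up 8.71% to 19.8% of keratinocytes and 6.48% to 14.1% of fibroblasts. Joint detection of the chains was not tested.

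Neither chain passed the test for a change with the cream. For Il17ra the log2 fold change of IMQ over Sham was -0.46 in keratinocytes (SE 0.294, edgeR adjusted p = 0.328), -0.25 in fibroblasts (SE 0.379, adjusted p = 0.923) and 0.83 in myeloid cells (SE 0.564, adjusted p = 0.666). For Il17rc in keratinocytes it was 0.21 (SE 0.256, adjusted p = 0.622), and 0.26 for IMQ+SHP099 over IMQ (SE 0.257, adjusted p = 1). No member passed in fibroblasts (0 of 3 tested, 0.638% of genes called, 0.333% risen and 0.305% fallen) or basal keratinocytes (0 of 3, 8.01% called, 3.93% risen and 4.08% fallen). Between type 17-like and other αβ T-like cells Il17ra differed by 0.117 ± 0.758 in 4 libraries (exact p = 1).

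Il22ra1, on chromosome 4 at 135728172 to 135752140, was the scarcest member, with 3 to 63 UMIs per library over all cells. Keratinocytes held 15 of 16 and 8 of 9 UMIs in Sham skin, 4 of 4 and 12 of 14 in IMQ skin, and 63 of 63 and 3 of 3 in IMQ+SHP099 skin. In CPM the keratinocyte level was 0.204 and 0.262 in Sham skin, 0.0981 and 0.516 in IMQ skin, and 0.454 and 0.316 in IMQ+SHP099 skin. The groups overlapped, with a log2 fold change of 0.60 for IMQ over Sham (SE 0.864, edgeR adjusted p = 0.675). Keratinocytes exceeded fibroblasts in 6 of 6 libraries by 0.34 ± 0.216 on the log2(CPM+1) scale (exact p = 0.03125, BH 0.0495, with 23.7% of genes higher in keratinocytes than in fibroblasts in all 6), but 3 UMIs correspond to 0.0524 to 0.473 CPM in fibroblasts. Against myeloid cells and lymphocytes, both at 0 UMIs in every library, a difference was not detectable at this depth: 3 UMIs, the count that 0 observed allows, correspond to 0.467 to 2.14 CPM in myeloid cells. Its partner Il10rb, which also serves the IL-10 receptor, was broad, at 4.95 to 8.09 CPM in keratinocytes and 23.9 to 41.1 CPM in fibroblasts. Il10rb did not pass in keratinocytes (log2 fold change 0.93, SE 0.340, edgeR adjusted p = 0.109), and both chains were seen together in 0 to 17 keratinocytes per library.

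Il22ra2 passed the test in keratinocytes. It encodes the soluble IL-22 binding protein, a decoy that keeps IL-22 from its receptor. It fell in keratinocytes from 21.3 and 16.96 CPM in Sham to 2.67 and 1.89 CPM in IMQ skin, and read 4.89 and 6.00 CPM in IMQ+SHP099 skin. The groups did not overlap. The log2 fold change was -2.77 for IMQ over Sham (SE 0.382, edgeR adjusted p = 0.00350), called under all 12 alternatives, and 1.33 for IMQ+SHP099 over IMQ (SE 0.374, unadjusted p = 0.00713, adjusted p = 1, and 0.0501 at the lowest of 12 alternatives). In the basal clusters it fell from 30.8 and 28.1 CPM to 0.999 and 4.12 CPM (log2 fold change -3.87, SE 0.683, edgeR adjusted p = 0.00353), and read 6.82 and 25.6 CPM in IMQ+SHP099 skin, the second in 30 cells. The basal class held 2777 and 863 cells in Sham skin but 87 and 70 in IMQ skin, and different clusters held it in the groups, as described for Il23a. By gates, basal cells read 28.4 and 33.8 CPM in Sham skin, 1.44 and 2.37 CPM in IMQ skin, and 6.30 and 11.3 CPM in IMQ+SHP099 skin. Fibroblasts read 0.63 and 0.388 CPM in Sham skin, 2.74 and 1.87 CPM in IMQ skin, and 0.619 and 1.53 CPM in IMQ+SHP099 skin (log2 fold change 2.40 for IMQ over Sham, SE 0.672, edgeR adjusted p = 0.181).

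Of a list of 31 further genes of IL-23, IL-17 and IL-22 signalling, 26 were tested in keratinocytes, 2 rose and 6 fell in IMQ over Sham, where 5.04% of all genes rose and 7.52% fell. The median log2 fold change was -0.06, beside -0.09 over all genes. Il17b, an IL-17 family cytokine that signals through another receptor, rose by 3.48 (SE 0.634, edgeR adjusted p = 0.0114) from 0.204 and 1.08 CPM to 4.27 and 5.77 CPM. Cebpd, a transcription factor induced by IL-17, rose by 2.52 (SE 0.288, edgeR adjusted p = 0.00178) from 25.7 and 41.6 CPM to 144 and 157 CPM. Il12rb2, an IL-12 receptor chain, fell by 6.04 (SE 0.858, edgeR adjusted p = 0.00409) from 17.9 and 15.8 CPM to 0.319 and 0.043 CPM, the last being 1 UMI. Traf5, an adaptor of the TRAF family, fell by 3.12 (SE 0.321) and Rora, a nuclear receptor, by 2.29 (SE 0.365), with edgeR adjusted p-values of 0.00131 and 0.00678. None of the list passed in lymphocytes (0 of 23 tested), myeloid cells (0 of 20) or fibroblasts (0 of 22). Of all genes, 0.0108%, 0% and 0.638% were called in these sums.

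On the receiving side, a list of 33 genes known to respond to IL-17 or IL-22 in epithelium rose widely in keratinocytes. Of 32 tested, 26 rose and none fell, where 5.04% of all genes rose and 7.52% fell. The median log2 fold change was 4.61, beside -0.09 over all genes. S100a8, a subunit of the antimicrobial protein calprotectin, read 1.499 and 1.21 CPM in Sham skin, 16006 and 12684 CPM in IMQ skin, and 15048 and 24421.5 CPM in IMQ+SHP099 skin. Its log2 fold change was 13.63 (SE 0.816), beside 13.74 for its partner S100a9 (SE 1.27) and 10.83 for the wound keratin Krt6b (SE 0.601), with edgeR adjusted p-values of 0.000186, 0.000853 and 0.000186. Defb4, a β-defensin, had 0 UMIs in both Sham libraries and 12.9 and 8.13 CPM in IMQ. Many of these genes also respond to other inflammatory signals, and the list was written with earlier results of these data known. In the basal clusters 20 of 25 rose, where 3.93% of all genes rose.

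Fibroblasts showed 5 of 27 tested response genes risen and none fallen: Lcn2, the neutrophil attractant Cxcl5, S100a9, Krt6b and S100a8. Of all genes in the fibroblast sum, 0.333% rose and 0.305% fell. Lcn2, an iron-binding antimicrobial protein, read 0.158 and 0.226 CPM in Sham skin, 2845 and 1063 CPM in IMQ skin, and 2356 and 827 CPM in IMQ+SHP099 skin (log2 fold change 13.34, SE 1.14, edgeR adjusted p = 0.0181), while keratinocytes read 0.967 and 2.72 CPM, 334 and 319 CPM, and 405 and 393 CPM. Cxcl5 read 0.158 and 0.0969 CPM, 66.0 and 67.9 CPM, and 96.9 and 56.6 CPM (log2 fold change 9.39, SE 0.568, edgeR adjusted p = 0.00411). S100a8 and S100a9 reached 56.9 to 178 CPM in treated fibroblasts, while treated keratinocytes held at least 12684 CPM of S100a8. Keratinocyte marker RNA in the fibroblast class summed to 937 and 431 CPM in Sham skin, 307 and 201 CPM in IMQ skin, and 781 and 164 CPM in IMQ+SHP099 skin. Its part in the S100a8, S100a9 and Krt6b values was not tested.

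**Figure D5:**
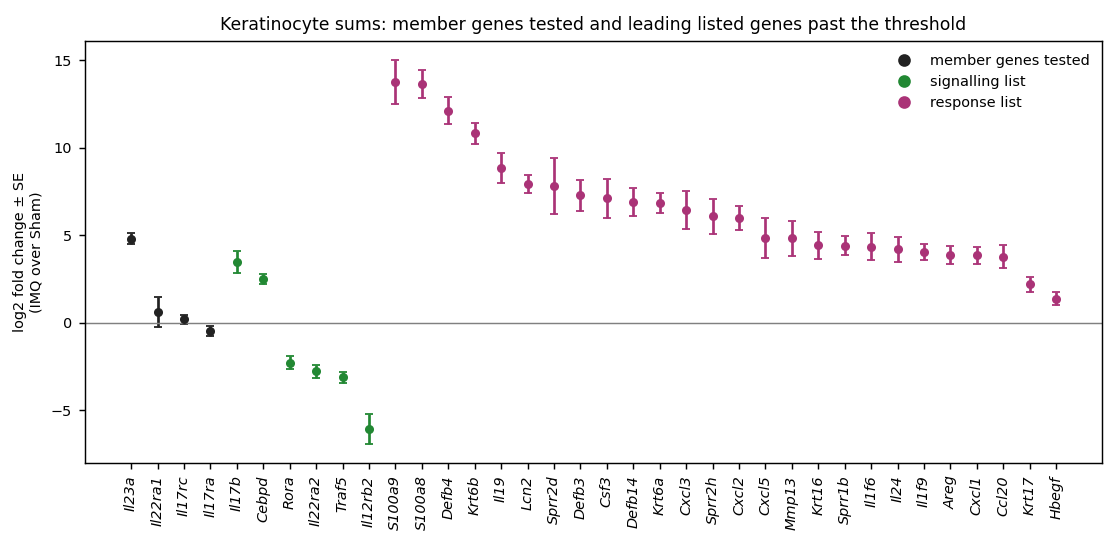
Log2 fold change of IMQ over Sham in keratinocytes, with bars for ± 1 SE, for the 4 member genes tested and for genes that passed the edgeR test, at most 4 per direction of the signalling list and all of the response list. Of the members Il23a stands at 4.81 with the receptor chains near 0, Il22ra2 and Il12rb2 lie on the falling side, and the response genes all lie on the rising side.

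In keratinocytes none of the response genes passed between IMQ+SHP099 and IMQ (0 of 32, 0% of 13850 genes called, with 293 at an unadjusted p under 0.05), and 27 of 32 were higher in IMQ+SHP099, with a median log2 fold change of 0.52, beside 7916 of 13850 genes higher and a median of 0.0479 over all genes. Il23a and Il22ra2 lay on the Sham side of the IMQ level in both inhibitor-treated libraries, but neither passed, and the lymphocyte cytokines of IMQ and IMQ+SHP099 overlapped.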

How the data were processed

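Droplet 3′ single-cell libraries were analysed from the UMI counts per gene and barcode deposited by the authors, which carry no normalization; the submitters' processing notes name Cell Ranger and GRCm38 (mm10). Following the study's methods, a barcode was dropped at 100000 or more UMIs, at 6500 or more genes, or at a mitochondrial share of 10% or more. Every deposited barcode had at least 500 UMIs, total counts per library were 53913865 to 188283327, and library pairs shared 12 to 30 barcodes.

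Cells were clustered in Python 3.11.15 with igraph 0.11.9 and scikit-learn 1.9.0 (tables with pandas 2.3.3, tests with scipy 1.17.1 and numpy 2.4.6, figures with matplotlib 3.10.9). The Leiden resolution was 0.8 on a graph of 20 neighbours in 30 principal components of the 3000 most variable genes, leaving out the 9 genes and with no integration of libraries. Keratinocytes, lymphocytes and myeloid cells were clustered again. A cluster was named when at least 3 markers of a list were raised (2-fold and in 10% of its cells). It stayed unnamed when too few markers were raised or when markers of a list other than its best one led. It also stayed unnamed when it was shallow with no marker among its 10 leading genes, or when the mean doublet score exceeded 0.3. A sub-cluster named for a class other than its parent class was set aside as mixed. The study's own cell labels were not used. Marker gates on single cells (3 markers, a lead of 0.5 SD) gave the same class in 99.4% of the cells named by both and left 22.1% ungated. The basal and suprabasal gates split the gated keratinocytes at the median marker ratio, with no further threshold. The automatic threshold on doublet scores marked 1 to 3 cells in the replicate 1 libraries and so did not work there; no doublets were removed, and removing the top 6% of scores is an alternative.

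UMIs were summed per library and class (at least 20 cells) and fitted over all 6 libraries with edgeR 4.0.16 (R 4.3.3, limma 3.58.1, quasi-likelihood, TMM, filterByExpr, group as the only term), with Benjamini-Hochberg adjustment over all genes of the sum and a threshold of 0.05. The SE is the log2 fold change over the square root of F. Classes of the same library were compared by exact paired sign-flip tests of log2(CPM+1), adjusted over 19 pairs. With all 6 libraries the lowest exact p is reached whenever every library has the same sign. Whether such a pair passes after adjustment depends on how many of the 19 pairs share that floor. Shares of cells were taken after thinning to 2000 UMIs and compared by exact permutation tests. On simulated counts with known changes the edgeR step recovered 70% of 4-fold and 92% of 16-fold changes in keratinocytes, 60% and 97% in lymphocytes, 59% and 97% in fibroblasts, and 24% and 86% in myeloid cells, with 7.10% to 8.77% of the calls false.

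Alternatives were DESeq2 1.42.0, RLE size factors, no filter on low counts, the replicate number as a block, only the groups compared, each library left out, a mitochondrial limit of 5%, Leiden resolution 1.6, gates, other thinning depths (1000, 4000) and a pseudocount of 10. All members are named. List genes are named when called in a sum, at most 4 per direction by fold change, with Il12b, Il10rb and Il22ra2 always given. A further gene of the lists, included in the counts, is not reported here. The members, lists and tests were chosen with earlier results of these data known. The symbols Il36a and Il36g were not found; Il1f6 and Il1f9 were used. Coordinates are those of GENCODE vM21 on GRCm38.p6, and promoters those of RefSeq, held for 6 of the 9 genes.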

Additional observations from a re-analysis of the deposited data

Results flagged for a closer look

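In 9 cases values went opposite ways, and none of these differences was tested. Either a gene rose in a cell class and fell in another between the same groups, or a difference within libraries changed sign between groups. In the former cases the libraries of the compared groups did not overlap in either class. In the latter cases both libraries of each group had the same sign. How many of all genes would meet these rules was not counted, so the number of cases has no background. Differences are on the log2(CPM+1) scale.

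For Il23a, the suprabasal less basal difference was 3.86 higher in IMQ than in Sham, and the myeloid less keratinocyte difference was 1.79 lower in IMQ (-1.79), being 0.605 and 0.206 in the Sham libraries and -0.196 and -2.57 in the IMQ libraries.

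Il22ra2, the IL-22 binding protein gene, moved apart in keratinocytes and fibroblasts. From Sham to IMQ it changed by -2.62 in keratinocytes and by 1.12 in fibroblasts, a difference of -3.74, and from IMQ to IMQ+SHP099 by 0.978 and -0.695, a difference of 1.67. The fibroblast levels stayed under 3 CPM throughout.

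For Il17ra the change from Sham to IMQ was -0.70 in keratinocytes and 0.63 in myeloid cells, a difference of -1.33. Its suprabasal less basal difference was 0.288 lower in IMQ (-0.288), with every library within 0.4 of 0. Il10rb changed from IMQ to IMQ+SHP099 by 0.0944 in fibroblasts, which was 0.478 above the change in endothelial cells, 0.681 above that in lymphocytes and 0.551 above that in myeloid cells.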

How the results depend on the processing

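Of the fold changes of members and partner genes, 276 of 299 values kept their direction and side of the threshold under the alternatives. Other kinds of result were scored by other rules. Of the differences between cell classes, 185 of 190 were scored as unchanged. With a library left out no pair could pass, and unchanged meant a value within the SD of the main one. Of the gene counts, 115 of 168 stayed within a set factor of the main count. Of the shares of cells 31 of 42, and of the sources of cytokine UMIs 62 of 66, lay within the SD of the main value. The causes were not tested.

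Counts of genes called moved most. They are given as IMQ over Sham, then IMQ+SHP099 over IMQ where that moved too. With DESeq2 they were 574 and 3 in all cells, 2718 and 9 in keratinocytes, 661 and 1 in fibroblasts, 281 and 7 in myeloid cells, 113 in lymphocytes, 88 in endothelial cells, and 5 in the second contrast in basal cells. With no filter on low counts they were 30 in all cells, 2902 and 103 in keratinocytes, 1529 and 106 in basal cells, 1338 and 85 in fibroblasts, 663 and 145 in endothelial cells, 561 and 41 in lymphocytes, and 700 and 34 in myeloid cells. With only the groups compared they were 521 in basal cells, 27 in fibroblasts, 2 in lymphocytes and 205 in myeloid cells. With gates they were 1738 in basal cells, 175 in fibroblasts and 0 in lymphocytes, and with the top doublet scores removed 0 in lymphocytes and 1 in myeloid cells.

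Replicate numbers are shared by the groups, but nothing in the labels says that a number marks a common day or batch, and the differences between replicates of 2 groups correlated at 0.534 to 0.663 over all cells, 0.131 to 0.222 in keratinocytes, 0.232 to 0.424 in lymphocytes and 0.305 to 0.418 in myeloid cells, while in basal cells and fibroblasts they ran from -0.108 to 0.160 and from -0.00639 to 0.115. With the replicate block the counts were 287 in all cells, 2836 and 3 in keratinocytes, 254 in fibroblasts, 42 in endothelial cells, 259 in lymphocytes and 73 in myeloid cells.

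Leaving out 1 library gave 489 to 1986 called genes in keratinocytes (489 without IMQ replicate 1), 683 to 1031 in basal cells, 3 to 300 in fibroblasts (3 without Sham replicate 2, 300 without Sham replicate 1), 0 to 202 in endothelial cells and 0 to 43 in lymphocytes (43 without Sham replicate 2), and in the second contrast 0 to 1 in keratinocytes and 0 to 187 in basal cells (187 without IMQ replicate 1). Directions of uncalled values turned: in lymphocytes, IMQ+SHP099 over IMQ ran from -2.09 to 0.854 for Il17a (0.361 without IMQ+SHP099 replicate 1) and from -1.25 to 0.173 for Il17f (0.00557 without the same library), and IMQ over Sham ran from -0.708 to 0.42 for Il17ra in fibroblasts and from -0.83 to 1.41 for Il22ra1 in keratinocytes.

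With gates in place of clusters, the Il17rc difference of fibroblasts and myeloid cells was 1.51, that of basal and suprabasal cells -0.808, the Il22ra1 difference of the layers -0.204, and for type 17 less αβ T cells Il23r 3.59 and Il17ra -0.0899. Gated lymphocytes held 94.1% of Il17a UMIs, and the type 17 gate 80.4% of Il17a, 83.4% of Il17f and 90.9% of Il22 UMIs. The rise in the share of cells with a UMI scaled with depth: thinned to 1000 and 4000 UMIs it was 1.46 and 5.01 points for Il23a in keratinocytes (14.7 unthinned), and in lymphocytes 14.3 and 30.3 for Il17f, 11.2 and 24.8 for Il22, and 0.481 and 7.42 for Il23r (5.13 unthinned). For Il17rc in keratinocytes the sign changed. Its IMQ less Sham difference was -1.69, -1.95 and -2.05 points when thinned to 1000, 2000 and 4000 UMIs, and 20.9 without thinning. Il22ra1, Il23r and Il12b rest on few UMIs, and their depth limits any statement on change.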

Other observations

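For each gene, the 3 genes with the most similar pattern over 42 sums of a cell class in a library were found by Pearson's r of log2(CPM+1) among 16986 genes. The sums of a library share its depth and its mice, so r is a description. Il23r was most like Lingo4 (0.98) and 5830411N06Rik (0.98), the second a marker of type 17 γδ T cells, and Il12rb1 was most like Ccr6 (0.98), Samd3 and Cd40lg. Il17f and Il22 were most like each other (0.98), and Il17a was most like Prr29 (0.98). Il23a was most like Il1a (0.83), which encodes an epidermal alarmin, followed by Fcmr (0.80) and Vnn3 (0.80). Il17rc was most like Plcd1 (0.92) and Cd109, and Il22ra1 like Gsdma3 (0.90), with few UMIs behind the latter. Il17ra was most like H2-M3 (0.86).

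Cycling keratinocytes carried Il23a at 1.68 and 1.07 CPM in Sham, 6.08 and 3.91 CPM in IMQ, and 4.21 and 4.27 CPM in IMQ+SHP099. Langerhans-like cells read 3.33 and 0 CPM in Sham, 25.6 and 2.94 CPM in IMQ, and 12.2 and 0 CPM in IMQ+SHP099, on 0 to 30 UMIs.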
